A study of Mus musculus with 12 samples.

Results

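BMAL1-ChIP-seq peaks were examined at 10 genes of the TEAD and YAP pathway: Tead1, Tead2, Tead3, Tead4, Yap1, Wwtr1, Vgll3, Vgll4, Lats1 and Lats2. A peak was counted for a gene when the protein-coding start site nearest to the middle of the peak belonged to that gene (GENCODE M21 basic annotation, mm10). The 10 genes stood among 21875 protein-coding genes, and 77 of the 35822 peaks in 6 lists fell to them. Peaks that overlapped between libraries were merged, which gave 39 regions at these genes of 16818 regions in all. The cells were primary mouse adult fibroblasts (MAFs), which the study grew from the ears of C57BL/6 mice. Control cells were sham irradiated (n = 3 libraries), and senescent cells had received 20 Gy of X-rays (n = 3 libraries). Both groups were kept at 3% oxygen, were treated with 100 nM dexamethasone, a glucocorticoid that aligns the clocks within a culture, and were harvested 12 hours after this synchronization. The libraries therefore show a single time after synchronization and a single way of inducing senescence, and the 6 input libraries were not analysed here.

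The TEAD proteins are transcription factors that bind DNA at the letters GGAATG, which read CATTCC on the other strand. They do little alone and take their activity from partners: YAP (gene Yap1) and TAZ (gene Wwtr1) are coactivators without a DNA-binding domain, while the vestigial-like proteins VGLL3 and VGLL4 dock on the same TEAD proteins. The LATS kinases of the Hippo pathway phosphorylate YAP and TAZ and hold them in the cytoplasm, and in fibroblasts the pathway is known for reading stiffness, spreading and cell density. BMAL1 pairs with CLOCK and binds the E-box CACGTG, and AP-1, the factor the study set beside BMAL1 in senescence, binds TGACTCA or TGAGTCA.

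The lists held 2794, 3349 and 10601 peaks in control replicates 1, 2 and 3, and 4220, 9805 and 5053 peaks in senescent replicates 1, 2 and 3. They give positions and scores without reads, and the sequencing depth is therefore unknown. A gene without a peak in a list is a gene where no peak was called, and BMAL1 may still have been bound there. Scores (read as the −log10 of the q-value) are not normalized between libraries, so each peak is given by its percentile rank in its own list, where 0 is the best score and 100 the poorest. The antibody recovered clock genes in both groups: 13 of 14 clock and clock output genes had a peak in all 6 libraries, against 5.13% of all protein-coding genes and 2 of the 10 pathway genes (Tead4 and Vgll3). The labels number the replicates without saying whether they were separate cultures, so the p-values below measure the spread between these libraries.

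The DNA of the merged regions is shown first, because the regions of these genes differed in the motifs they held. All sequences are from GRCm38, plus strand. The next 5 hold a canonical E-box inside the region, and capitals mark CACGTG and the TEAD letters GGAATG or CATTCC. The E-box lay inside the peak of each library that called the region, except that of control replicate 1 at Tead1 region 4.
Tead4 region 2, called in all 6 libraries, chr6:128282276-128282361: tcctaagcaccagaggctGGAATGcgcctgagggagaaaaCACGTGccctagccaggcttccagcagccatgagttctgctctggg
Yap1 region 1, promoter, chr9:8004714-8004799: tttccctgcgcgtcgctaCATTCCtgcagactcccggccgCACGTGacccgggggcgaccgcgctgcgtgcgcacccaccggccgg
Lats2 region 1, promoter, chr14:57746108-57746153: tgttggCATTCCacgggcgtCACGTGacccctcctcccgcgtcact
Tead1 region 4, intron, chr7:112696992-112697077: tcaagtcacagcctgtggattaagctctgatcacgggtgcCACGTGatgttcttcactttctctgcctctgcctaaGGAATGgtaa
Tead1 region 5, intron, chr7:112700349-112700434: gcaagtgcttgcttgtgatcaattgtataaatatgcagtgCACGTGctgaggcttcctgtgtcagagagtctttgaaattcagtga
The next 4 are shown because they hold an AP-1 motif in merged regions with calls in at least 3 libraries, and capitals mark TGACTCA or TGAGTCA and the TEAD letters. A merged region is wider than some of its peaks: the AP-1 site lay whole inside the peaks of all 3 senescent libraries at Tead1 region 4 (and of neither control library that called it), of control replicate 3 alone at Tead1 region 6, of all 3 libraries that called Wwtr1 region 3, and of senescent replicates 1 and 2 at Vgll3 region 5.
Tead1 region 4, chr7:112697186-112697251: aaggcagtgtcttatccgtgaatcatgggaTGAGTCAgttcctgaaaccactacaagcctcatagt
Tead1 region 6, chr7:112720214-112720279: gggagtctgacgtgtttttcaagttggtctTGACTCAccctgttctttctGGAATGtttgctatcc
Wwtr1 region 3, chr3:57555770-57555835: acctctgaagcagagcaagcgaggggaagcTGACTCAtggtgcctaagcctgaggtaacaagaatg
Vgll3 region 5, chr16:65818927-65818992: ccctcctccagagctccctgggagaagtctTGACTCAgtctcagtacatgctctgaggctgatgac
The last, from the other region called in all 6 libraries, holds neither an E-box nor an AP-1 motif, and capitals mark CATTCC, which lay inside the peaks of 4 of the 6 libraries.
Vgll3 region 9, called in all 6 libraries, chr16:65823911-65824030: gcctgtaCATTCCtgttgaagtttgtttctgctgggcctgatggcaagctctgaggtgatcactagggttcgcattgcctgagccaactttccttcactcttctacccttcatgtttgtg

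Peaks were called at 8 of the 10 genes, beside 36.3% of all protein-coding genes. Vgll3 held 33.8% of the 77 peaks and Tead1 held 22.1%, whereas Tead2 and Lats1 had 0 peaks in all 6 lists. Of the 39 regions, 2 (5.13%) were called in all 6 libraries, beside 6.58% of all regions. A further 2 (5.13%) were called in at least 2 senescent and 0 control libraries, beside 9.44% of all regions, and 4 (10.3%) in at least 2 control and 0 senescent libraries, beside 5.86%. Both groups shared another 10 regions (25.6%, beside 22.4% of all regions), and 21 (53.8%, against 55.7% of all regions) were called in a single library. The 95% Wilson intervals of the 39 regions, which cover counting error only, held the genome value in each of these 5 sets. With 39 regions they are wide, 4.06 to 23.6% for control-only regions, and they take regions as independent. They therefore cannot show that the shares are alike. The length of the lists moved with the calls: senescent replicate 2 alone gave 12 of the 21 regions seen in a single library and control replicate 3 gave 7. Only 2 of the 39 regions were called in neither of these 2 longest lists. The 2 lists held 64.9% of the peaks at these genes, beside 57.0% of all peaks. With every list cut to its 2794 best peaks the counts were 2 senescent-only, 1 control-only and 1 in all 6 libraries. Control-only regions thus no longer outnumbered senescent-only ones, but these were not all the same regions. The senescent-only ones were Tead1 regions 3 and 5, and the control-only one was Vgll3 region 9, which had lost its senescent calls. Yap1 region 1 kept no call, and the 4 earlier control-only regions each lost that of control replicate 3. Shares over all regions at this length are not given here.

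**Figure D1:**
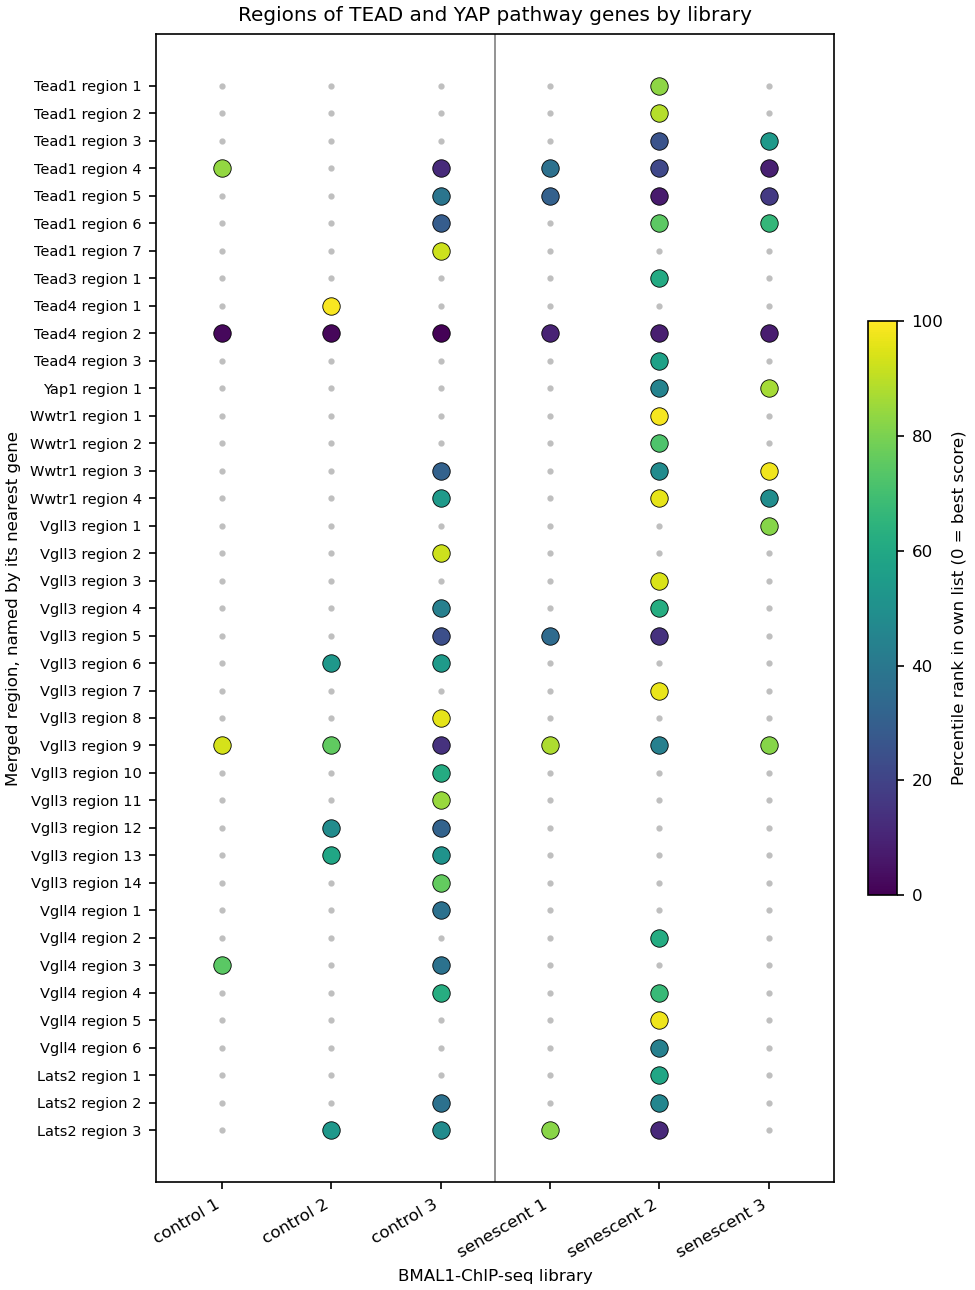
Each of the 39 regions at the TEAD and YAP pathway genes is a line and each BMAL1-ChIP-seq library a column; a coloured point is a called peak, coloured by its percentile rank in its own list (0 = best score), and a small grey dot is no call. Tead4 region 2 is dark in all 6 columns, and the columns of control 3 and senescent 2 hold the most points.

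The best-ranked BMAL1 peak of the pathway lay in Tead4, and its rank was better in each control library than in each senescent library. Tead4 region 2 (chr6:128282061-128282725) lay in an intron of Tead4, 6792 bp upstream of the nearer of the gene's 2 start sites. Its percentile ranks were 2.08, 1.67 and 0.670 in control replicates 1, 2 and 3 and 9.69, 8.30 and 8.20 in senescent replicates 1, 2 and 3. All 3 control values were better than all 3 senescent values, and the groups did not overlap. In places within the list, this peak was number 58, 56 and 71 in the control lists and number 409, 813.5 and 414.5 in the senescent lists, where tied peaks share a mean place. On this scale, which depends on the length of the lists, 18.4% of the regions called in all 6 libraries stood better in every control than in every senescent list. It was the best peak of the 10 genes in every list except that of senescent replicate 2, where Tead1 region 5 stood higher.

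The mean percentile rank of Tead4 region 2 was 1.47 ± 0.724 in control (SD, n = 3) and 8.73 ± 0.834 in senescent cells (SD, n = 3). The difference of 7.26 percentile points gave p = 0.1 in an exact two-sided permutation test, the smallest p that 3 against 3 libraries allow. After Benjamini-Hochberg adjustment over the 1106 regions called in all 6 libraries the exact permutation p was 0.567, so it did not pass. Of those 1106 regions, 4.7% ranked better in every control than in every senescent library, as Tead4 region 2 did, and 12.9% showed the opposite. The median region moved the other way, by -3.08 percentile points from control to senescent. By mean rank Tead4 region 2 stood at place 45 of 1106 in control and at place 383 in senescent cells. With each list cut to its 2794 best peaks the difference was 17.3 percentile points in the same direction, but there 17.4% of 752 regions ranked better in every control library.

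The widths of the peaks over Tead4 region 2 did not overlap between groups either. The peaks spanned 630, 588 and 618 bp in control and 496, 488 and 429 bp in senescent replicates, so that each control peak was wider than each senescent peak. This was looked at after the ranks were known, and 3.8% of the 1106 regions had wider peaks in every control library. The scores were 61.5, 56.3 and 81.0 in control and 31.4, 23.5 and 31.5 in senescent replicates, on a scale that is not normalized between libraries. In both groups the peak covered the same motif, and its middle lay 92, 44 and 51 bp from the middle of the E-box in control and 57, 26 and 48 bp from it in senescent replicates. The E-box stood at chr6:128282316-128282321, 16 bp from GGAATG, as printed above.

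**Figure D2:**
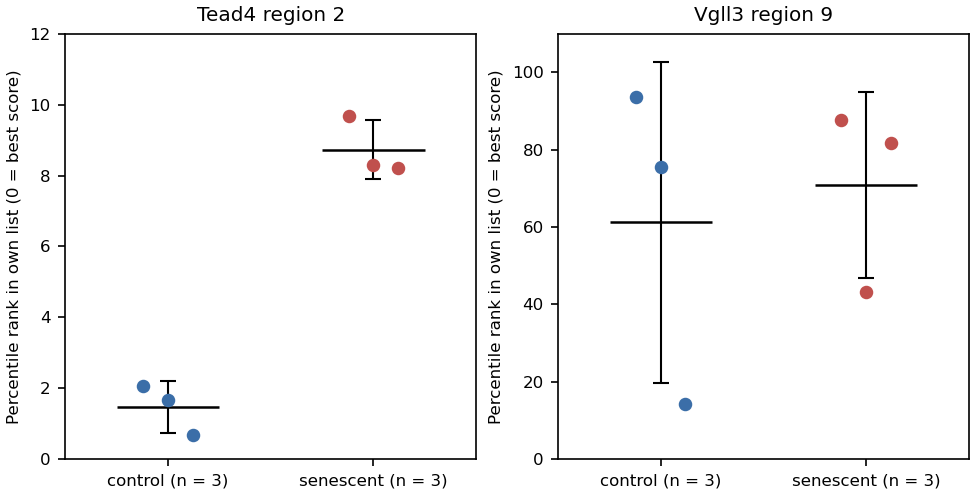
The vertical axes give the percentile rank in the own list (0 = best score) of the 2 regions called in all 6 libraries; points are libraries, horizontal bars means and error bars SD (n = 3 per group). At Tead4 region 2 the control points (0.670 to 2.08) lie below the senescent points (8.20 to 9.69), and at Vgll3 region 9 the groups overlap.

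**Figure D3:**
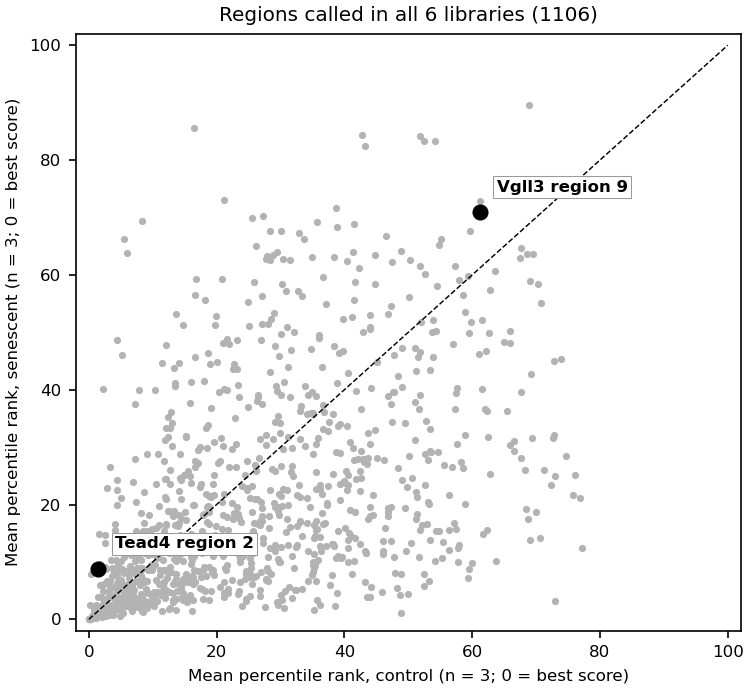
Each grey point is 1 of 1106 regions called in all 6 libraries, with its mean percentile rank in control (horizontal axis) and senescent (vertical axis) libraries, n = 3 each; the dashed line marks equal ranks. Tead4 region 2 (1.47 against 8.73) and Vgll3 region 9 (61.2 against 70.9), in black, both lie above the line.

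Tead1 was the TEAD gene with the most regions, 7 of the 11 found at TEAD genes. Its 2 best-ranked regions lay in introns and both held an E-box. Tead1 region 5 (chr7:112700159-112700644), 21013 bp downstream of a start site, was called in all 3 senescent libraries, at percentile ranks of 30.5, 7.23 and 17.0 in replicates 1, 2 and 3, and in control replicate 3 at 38.9. Each senescent rank was better than that of the lone control peak, but 2 control libraries gave no rank to compare. Tead1 region 4 (chr7:112696901-112697358), 17789 bp downstream, was called in 5 libraries, at 83.8 and 11.8 in control replicates 1 and 3 and at 36.8, 21.9 and 8.77 in senescent replicates 1, 2 and 3. The groups overlapped there, since control replicate 3 ranked this region above senescent replicates 1 and 2.

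The promoter of Tead1 was called in senescent libraries only. Tead1 region 3, whose best peak was centred 67 bp upstream of a start site, had a peak in senescent replicates 2 and 3, at percentile ranks of 25.7 and 53.8, and in neither senescent replicate 1 nor any control library. Tead1 region 6, 21760 bp upstream of an internal start site and was called in control replicate 3 and senescent replicates 2 and 3 at 29.0, 74.7 and 66.3. The senescent peaks lay on either side of its AP-1 motif and GGAATG, and the peak of control replicate 3 alone covered them.

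Over the whole gene, Tead1 had 1, 0 and 4 peaks in control replicates 1, 2 and 3 and 2, 6 and 4 in senescent replicates. The groups overlapped, and the exact two-sided permutation test gave p = 0.3 (adjusted p = 1 over 7950 genes with any peak). With each list cut to its 2794 best peaks, Tead1 had 1, 0 and 1 control peaks and 2, 3 and 3 senescent peaks, and the groups no longer overlapped. At that length 6.53% of 4475 genes had more peaks in every senescent than in every control library. Tead3 had a lone peak, in an intron 9271 bp from its start site, with an AP-1 motif and a percentile rank of 60.7 in senescent replicate 2. The 2 other Tead4 regions were each called in a single library.

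Both coactivator genes had a promoter region. Yap1 had a single region in the whole series (chr9:8004603-8005029), with its best peak centred 188 bp upstream of a start site. It was called in senescent replicates 2 and 3, at percentile ranks of 44.6 and 86.5, and in neither senescent replicate 1 nor any control library. Its E-box at chr9:8004754-8004759 lay 28 and 60 bp from the middle of these peaks and, like that of Tead4, 16 bp from a TEAD motif. Wwtr1 had 4 regions, of which region 4 (chr3:57575760-57576106) covered a start site, with its best peak centred 7 bp into the transcript, in the UTR. It was called in control replicate 3 and senescent replicates 2 and 3, at 54.3, 96.5 and 48.6. The best-ranked Wwtr1 region, region 3 (chr3:57555641-57555849) in an intron 20083 bp downstream, held an AP-1 motif and was called in the same 3 libraries, at 31.1, 47.7 and 97.8. The control rank of region 3 was better than both senescent ranks, while that of region 4 lay between them.

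Vgll3, which codes for a TEAD cofactor, had the most regions of the 10 genes, 14, and 8 of them lay in an intron, between 2276 and 8367 bp downstream of its start site. Vgll3 region 9 (chr16:65823675-65824318), 8367 bp downstream, was called in all 6 libraries, yet low in most lists. Its percentile ranks were 93.6, 75.6 and 14.4 in control replicates 1, 2 and 3 and 87.8, 43.2 and 81.7 in senescent replicates 1, 2 and 3. The best control rank and the best senescent rank came from the 2 longest lists, and the groups overlapped. The mean was 61.2 ± 41.6 in control (SD, n = 3) and 70.9 ± 24.2 in senescent cells (SD, n = 3), and the exact two-sided permutation p was 0.7 (adjusted p = 0.883). The peaks did not all cover the same bases: those of senescent replicates 2 and 3 ended at 65823920 and 65823928, before that of control replicate 1 began at 65823981, and wider peaks of the other libraries joined them.

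The control-only regions lay at the cofactor genes. Vgll3 region 6 (chr16:65821641-65822162), 6331 bp downstream, was called in control replicates 2 and 3 at percentile ranks of 53.2 and 54.3. Vgll3 region 12 (chr16:65987248-65987546) and region 13 (chr16:65999446-65999760) lay between genes, 171768 and 183961 bp downstream, with ranks of 48.2 and 31.6 and of 59.1 and 51.3 in the same replicates. Vgll4 region 3 (chr6:114883392-114883628), in an intron of Vgll4, was called in control replicates 1 and 3 at 74.2 and 37.7. All 4 rested on control replicate 3, and none held an E-box or AP-1 motif. Control replicate 3 called 11 of the 14 Vgll3 regions, while 6 of the 14 were called in any senescent library. The Vgll3 start site also stood nearest to 1029 kb of the genome, the largest stretch among the 10 genes.

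The best-ranked Vgll3 region, region 5 (chr16:65818661-65819465), held an AP-1 motif 14 bp from the middle of its best peak and an E-box 260 bp from it. It was called in control replicate 3 and senescent replicates 1 and 2 at percentile ranks of 24.1, 34.6 and 14.2, with the control value between the senescent ones. Vgll3 had 1, 4 and 12 peaks in control and 2, 5 and 2 in senescent replicates, and the exact two-sided permutation p was 0.7. Vgll4, whose product competes with YAP for TEAD proteins, had 1, 0 and 3 peaks in control and 0, 4 and 0 in senescent replicates (exact permutation p = 1). The promoter at its GENCODE start site, region 4, 46 bp upstream, was called only in the 2 longest lists, at 62.3 in control replicate 3 and 67.4 in senescent replicate 2. The best-ranked Vgll4 region by mean was region 1 (chr6:114812441-114812620), at 37.1 in control replicate 3 alone, which lay inside an intron of Atg7, an autophagy gene, 109291 bp from the Vgll4 start site.

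Of the kinases that restrain YAP and TAZ, Lats2 had 3 regions and Lats1 none. Lats2 region 3 (chr14:57760414-57760835), 14485 bp upstream, was called in control replicates 2 and 3 at percentile ranks of 53.2 and 48.0 and in senescent replicates 1 and 2 at 82.3 and 11.5. The senescent ranks lay on either side of the control ranks. Lats2 region 2 (chr14:57746473-57746804), 417 bp upstream of a start site, was called only in control replicate 3, at 37.3, and senescent replicate 2, at 46.0. Region 1 (chr14:57746078-57746235), 33 bp upstream, was called in senescent replicate 2 alone, at 59.3, and held an E-box 8 bp from a TEAD motif.

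**Figure D4:**
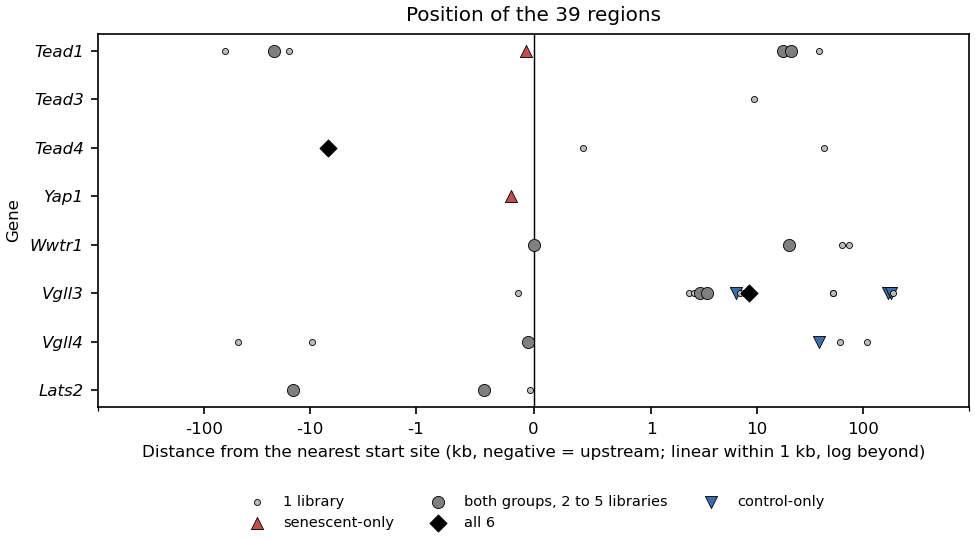
The horizontal axis gives the distance of each of the 39 regions from the nearest start site in kb (negative is upstream; linear within 1 kb and logarithmic beyond), by gene; markers show in which libraries a region was called. Both senescent-only regions (Tead1 and Yap1) lie within 1 kb of a start site, and the 4 control-only regions lie downstream at Vgll3 and Vgll4.

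Most regions lay away from promoters. The middle of the best peak was in an intron in 20 of 39 regions, between genes in 17 and in a UTR in 2. A start site lay within 1000 bp in 8 regions (20.5%, 95% Wilson interval 10.8 to 35.5%), beside 33.9% of all regions, and these 8 belonged to 7 of the 10 genes. None was called in control replicates 1 and 2 or senescent replicate 1, whereas control replicate 3 called 3, senescent replicate 2 called 7 and senescent replicate 3 called 4. As a share of the peaks at these genes, promoter peaks made up 0, 0 and 12.5% in control and 0, 26.9 and 40% in senescent replicates. The means were 4.17 ± 7.22% in control and 22.3 ± 20.4% in senescent cells (SD, n = 3 each), and the exact two-sided permutation p was 0.4. Over all peaks of the lists the promoter share was 32.1% in control and 41.7% in senescent cells, on average over 3 libraries.

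The E-box and AP-1 shares at these genes lay near those of all regions, and the TEAD share above. CACGTG lay within 100 bp of the middle of the best peak in 6 of 39 regions (15.4%, 95% Wilson interval 7.25 to 29.7%) and in 16.7% of all regions. An AP-1 motif did so in another 6 of 39 (15.4%), beside 16.5% of all regions. The TEAD letters stood in 16 of 39 regions (41.0%, 95% Wilson interval 27.1 to 56.6%), beside 16.8% of all regions. Regions of the same gene are not independent, so this difference is given as a description. GGAATG is short and was searched on both strands, and its presence does not show that a TEAD protein was bound. Within the 39 regions, 0 sites of these motifs shared a base with a site of another.

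By library, the share of peaks at these genes with the TEAD letters was 25, 57.1 and 37.5% in control and 83.3, 50 and 70% in senescent replicates 1, 2 and 3. The groups overlapped, and means of 39.9 ± 16.2% and 67.8 ± 16.8% (SD, n = 3 each) gave an exact two-sided permutation p of 0.2. Flanks 2000 bp to either side of the same peaks held them in 24.5 ± 11.8% of windows in control and 8.03 ± 2.13% in senescent libraries. The E-box share was 23.4 ± 6.11% in control and 28.8 ± 5.23% in senescent cells (exact permutation p = 0.4, n = 3 each), and the AP-1 share 12.5 ± 12.5% and 24.2 ± 7.93% (exact permutation p = 0.3, n = 3 each). Over all peaks of the lists the mean shares in control and senescent libraries were 16.9 and 15.2% for the TEAD letters, 22.8 and 32.2% for the E-box and 12.9 and 16.7% for AP-1. These shares rest on few peaks, between 4 in control replicate 1 and 26 in senescent replicate 2.

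The same letters were counted in the promoters that RefSeq gives for GRCm38.p6, as windows of 300 bp over a start site. RefSeq sequences were matched for 8 of the 10 genes, all but Tead1 and Tead4, with 12 promoters. CACGTG stood in 3 of these 12 promoters (25%, those of Yap1, Vgll4 and Lats2), against 7.15% of 32851 promoters, and the TEAD letters in 8 of the 12 (66.7%), against 14.7%. Some promoters of the same gene, such as those of Tead3 and Wwtr1, overlap each other, and by gene the TEAD letters stood in 6 of 8. The RefSeq promoter of Vgll4 (chr6:114969154-114969453) is not the one at region 4, which lies at the GENCODE start site. Vgll4 region 6 (chr6:114969922-114970028) lay nearer to it but outside the window. That region was called in senescent replicate 2 alone, at a percentile rank of 43.2. The AP-1 letters were in 0 of the 12 promoters and in 5.20% of all. At Yap1 and Lats2 a called promoter region covered the promoter E-box. At Yap1 the calls were those of senescent replicates 2 and 3, at percentile ranks of 44.6 and 86.5. At Lats2 the call was that of senescent replicate 2 alone, at 59.3, so this region is not among the senescent-only ones. With all lists cut to equal length Yap1 had 0 peaks in every library. No share over all regions is given for this pattern.

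The pathway as a whole took between 0.142 and 0.265% of each list. Peaks at the 10 genes made up 0.143, 0.209 and 0.226% of the lists of control replicates 1, 2 and 3 and 0.142, 0.265 and 0.198% of those of senescent replicates. The means were 0.193 ± 0.0439% and 0.202 ± 0.0616% (SD, n = 3 each), and their difference of 0.00889 percentage points was smaller than either SD (exact two-sided permutation p = 1). The median percentile rank of these peaks was 58.8 ± 18.0 in control and 51.9 ± 14.1 in senescent cells (SD, n = 3 each, exact permutation p = 0.6). Across the genome 5.12% of 7950 genes had more peaks in every senescent than in every control library and 1.84% had fewer. None of the 8 genes with a peak was in either class, and the smallest adjusted p over all 7950 genes was 1.

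Other genes of the pathway were counted from lists. Of 23 upstream genes, 19 had a peak in some library, beside the 36.3% of all genes given above. Of their 66 regions, 4 (6.06%) were called in all 6 libraries, 8 (12.1%) were senescent-only and 4 (6.06%) control-only, beside 6.58, 9.44 and 5.86% of all regions. The best-ranked region was at the promoter of Frmd6, a Hippo scaffold gene, at percentile ranks of 7.95, 10.4 and 2.13 in control and 5.66, 2.22 and 4.97 in senescent replicates, so the groups overlapped. A region 16687 bp upstream of Limd1, which codes for a LATS-binding LIM protein, ranked 1.83, 8.42 and 0.811 in control and 10.4, 6.87 and 9.38 in senescent replicates. Senescent replicate 2 ranked it better than control replicate 2, so those groups overlapped as well. A region of Amotl2, 6603 bp downstream, also had overlapping groups. The groups did not overlap at a region 11347 bp upstream of Sav1. It ranked 14.3, 21.9 and 4.23 in control and 53.3, 32.6 and 35.9 in senescent replicates. Of all 1106 regions called in all 6 libraries, 4.7% ranked better in every control library. Among regions called in every library of a single group, that of Amotl1, a YAP-binding angiomotin gene, was called at 34.2, 13.5 and 10.2 in senescent replicates. Regions of Map4k4 (36.8, 59.3 and 48.1) and Ajuba (63.1, 83.0 and 36.0) were also called in senescent replicates alone. That of Stk4, which codes for a kinase upstream of LATS, was called at 32.9, 17.3 and 54.3 in control replicates. The share of such regions in the whole series was not computed.

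Of 21 known target genes of YAP and TAZ, 19 had a peak in some library, beside 36.3% of all genes. Their 107 regions included 8 called in all 6 libraries (7.48%), 9 senescent-only (8.41%) and 4 control-only regions (3.74%), beside the same 6.58, 9.44 and 5.86% of all regions. An AP-1 motif lay in 32 of the 107 (29.9%) and in 16.5% of all regions. Ccn1 and Ccn2, matricellular proteins that serve as standard readouts of YAP activity, had regions at their start sites in all 6 libraries. The Ccn1 region ranked 31.9, 13.5 and 4.04 in control and 14.5, 9.17 and 9.19 in senescent replicates, with overlapping groups. A further Ccn1 region, 3351 bp upstream, was called in senescent replicates alone, at 46.1, 13.9 and 31.7. Axl, a receptor tyrosine kinase, had a region 6888 bp downstream of its start site with both an E-box and an AP-1 motif, called in senescent replicates alone at 43.4, 64.8 and 61.2. For these, too, the share of regions called in every library of a single group was not computed over the whole series. Control-only regions of this list included those of Ccn2, Ccdc80 and Amotl2, each called in 2 control libraries.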

How the data were processed

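BMAL1 was precipitated from cross-linked chromatin of control and senescent MAFs, and libraries were made by tagmentation on the beads. The authors mapped read pairs to mm10 with the Burrows-Wheeler Aligner, removed duplicates with Picard, and called peaks with MACS2 in each library separately at an FDR of 1% or less. The MACS2 version and its control were not given in the sources used here. The deposited peak score was taken to be a −log10 q-value, since the smallest score of each list lay between 2.02 and 2.12. Per the file headers the 6 lists came from 1 sequencing lane.

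Peaks were assigned to the nearest protein-coding start site (GENCODE M21 basic), merged at an overlap of at least 1 bp, and ranked within their list. Region sets were called in at least 2 of 3 libraries of a group and 0 of the other. A promoter lay within 1000 bp of a start site and a motif, on either strand, within 100 bp of the middle of a peak. Library values were compared with exact two-sided permutation tests over 20 arrangements, adjusted after Benjamini-Hochberg over all regions or genes tested, with Python 3.11.15, numpy 2.4.6 and scipy 1.17.1, and the tests were checked on simulated data. The 10 genes, the pathway lists and the tests were chosen with earlier results of these data known. All 10 genes are named, with each region called in all 6 libraries, in 1 group only, or ranked best for its gene, and other regions where a comparison needed them. The sequence of the Tead1 promoter region is not reported here. In each pathway list at most 8 genes by best mean rank could be named. Alternatives were a stricter score, equal list lengths, each library left out, start sites of all biotypes, other promoter, motif and overlap limits, and pairing by replicate number.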

Additional observations from a re-analysis of the deposited data

How the results depend on the processing

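Of 127 values recomputed, 101 kept their direction or stayed within 1.5 times the reported count, 9 changed sign and 17 counts moved. The Tead4 region 2 difference kept its sign throughout, between 6.78 and 7.56 percentile points with any library left out. Since its groups do not overlap, leaving out a library could change the size of the difference but not its sign. Deviations of same-numbered libraries correlated by 0.0992, -0.0988 and -0.0962, which cannot tell whether replicates of the same number were paired. The replicate block (exact sign-flip test, smallest p 0.25) gave p = 0.25 for Tead4 and p = 1 for the share of peaks at the 10 genes. With that smallest p it could not have changed a call. It also leaves each mean difference as it was, so those differences count among the 101 by construction. At the stricter score the E-box share turned to -11.0 percentage points and the median rank to 6.64, and the region counts were 0 senescent-only, 1 control-only and 1 in all 6. At equal list lengths they were 2, 1 and 1, partly at other regions, and 1 gene (Tead1) had groups that did not overlap. The median rank of the peaks at the 10 genes was there -22.5 percentile points, senescent minus control (exact two-sided permutation p = 0.1). This was opposite in direction to Tead4 region 2. With start sites of all biotypes the E-box share was -4.44 and the median rank 3.82, with 1 senescent-only and 2 control-only regions. Asking for all 3 libraries of a group left 0 and 0. Without both longest lists, chosen after seeing the data, the share of peaks was -0.00605 percentage points, with 1 senescent-only and 0 control-only regions. Leaving out single libraries moved the share of peaks between -0.0228 and 0.0387, the median rank between -14.2 and 3.17, and the counts between 0 and 6 senescent-only (6 without control replicate 3, 0 without senescent replicate 2 or 3), between 0 and 4 control-only (0 without control replicate 3) and between 2 and 3 in all remaining libraries. The cause of these changes was not tested. Depth is unknown, and 3 against 3 libraries could not give p below 0.1.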

Other observations

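In some of these regions the E-box stood close to the TEAD letters. This was noticed in the printed sequences and is given as a description without a test. Of 7 regions at the 10 genes with CACGTG anywhere inside them, 4 (57.1%) had GGAATG or CATTCC within 30 bp, against 165 of 3339 regions with an E-box in the whole series (4.94%). The 4 were Tead4 region 2 and Yap1 region 1, both at 16 bp, Lats2 region 1 at 8 bp and Tead1 region 4 at 30 bp. In Tead4 region 1, called in control replicate 2 alone, the gap was 33 bp, and it was 80 bp in Tead1 region 5 and 211 bp in Vgll3 region 5. The 7 regions lie at 5 genes, which were chosen as genes of TEAD proteins and their partners, and the 30 bp limit was set after the gaps were seen.

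For the length of genome nearest to their start sites, the 10 genes held 39.8 peaks per megabase over the 6 lists, against 13.1 for all genes. The value for all genes spans the whole genome, with genes that had 0 peaks, and was not matched for length of stretch or for expression. They took 0.215% of the peaks and 0.0711% of the genome. Without Vgll3, which has the longest stretch, the density was 56.2 peaks per megabase. The density was highest at Lats2, at 96.8, and Tead2 and Lats1, with 0 peaks, had stretches of 14.1 and 34.3 kb.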
